A study of Mus musculus with 6 samples.

Results

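Cxcl1, Cxcl2, Cxcl3, Cxcr2, Csf3r, S100a8 and S100a9 encode chemokines that draw neutrophils, receptors that neutrophils carry, and calprotectin, the protein pair that fills their cytosol. They were taken by symbol from the gene tables of the matrices, where these 7 genes were all found among 33696 features (in the order above ENSMUSG00000029380, ENSMUSG00000058427, ENSMUSG00000029379, ENSMUSG00000026180, ENSMUSG00000028859, ENSMUSG00000056054 and ENSMUSG00000056071). Their raw counts were followed through immune cells labelled as from mouse mammary tumours, sorted as live cells that carry the leukocyte antigen CD45 and captured with a droplet kit that reads the 3′ ends of transcripts. The series title names inhibition of MERTK, a kinase receptor used by macrophages to take up dying cells, and cyclophosphamide, an alkylating drug, in a model of triple negative breast cancer. Each treatment label has 1 library: MRX, CTX and Combined, and the d18 labels ctxd18t and combod18t. Counts of a further label, VC, were not analysed here. The labels do not spell these names out, and strain, age, tumour line, drug doses and the number of animals behind a library are not given in the sources used here. The tissue label of every library is mammary tumor, but the protocol text, the same for every library, also names the harvest of spleens, so the tumour origin rests on that label. The protocol describes day 7 mice dosed 3 hours before tissue was taken. Only ctxd18t and combod18t bear d18 in their label, and whether it marks a day is not stated. The protocol places the Combined, CTX, MRX and VC barcode sets in 1 run and lists no set for the d18 libraries. With 1 library per label no difference had a replicate check and no test was run. All intervals are 95% intervals for counting error only.

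The chemokines CXCL1, CXCL2 and CXCL3 bind CXCR2, the receptor by which mouse neutrophils leave the marrow and enter inflamed tissue, and they are made by stressed epithelium and stroma, by macrophages and by neutrophils themselves. CSF3R is the receptor for G-CSF, the cytokine that drives neutrophil production and survival. S100A8 and S100A9 pair to form calprotectin, a calcium- and zinc-binding complex abundant in neutrophils and young monocytes that is released at sites of inflammation.

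Among protein-coding genes ordered along the chromosome in RefSeq, Cxcl3, Cxcl1 and Cxcl2 lie in a row on chromosome 5 with only Cxcl15 between the first pair, and S100a8 and S100a9 are direct neighbours on chromosome 3. Csf3r lies on chromosome 4 and Cxcr2 on chromosome 1. The stretches upstream of the 3 chemokine genes are shown because they share 2 short runs of letters, set in capitals: GGAATTTCC, a form of the site bound by NF-kB, and ATAAAAGG, a TATA-like box. Each sequence runs from 100 to 11 bases before the RefSeq start site on the plus strand of GRCm38.p6 (chr5:90891145-90891234 for Cxcl1, chr5:90903799-90903888 for Cxcl2 and chr5:90786001-90786090 for Cxcl3), an earlier build than the GRCm39 named in the submitters' processing notes.
Cxcl1: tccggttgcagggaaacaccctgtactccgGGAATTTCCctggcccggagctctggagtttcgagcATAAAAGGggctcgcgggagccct
Cxcl2: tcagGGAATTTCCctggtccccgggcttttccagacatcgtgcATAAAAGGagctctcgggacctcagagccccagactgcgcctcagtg
Cxcl3: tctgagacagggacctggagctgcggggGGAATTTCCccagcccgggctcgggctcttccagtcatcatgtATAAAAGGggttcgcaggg
The first run began at -70 in Cxcl1, -96 in Cxcl2 and -72 in Cxcl3. On either strand it occurred in 104 of 32851 RefSeq promoter windows of 300 bases (0.317%), and ATAAAAGG in 577 of them (1.76%). Neither was found in the windows of Cxcr2, Csf3r, S100a8 or S100a9. The letters were chosen after the sequences had been read, and a match is a description only.

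The 5 libraries kept 3845 (ctxd18t) to 8506 (CTX) cells, at medians of 6239 to 8940 UMIs (unique transcript counts) per cell and totals of 36003453 to 91444334 UMIs in the kept cells. Cells were clustered without the 7 genes, and clusters were named from marker lists. Neutrophil-like cells formed 1 cluster, with 456, 88 and 75 cells in MRX, CTX and Combined (8.82%, 1.03% and 1.76% of kept cells) and 338 and 293 in ctxd18t and combod18t (8.79% and 7.59%). This order of libraries holds wherever 5 values are listed. They carried low RNA, with medians of 2810.5 to 4260 UMIs, and all 16 neutrophil markers had counts in every library, with a summed level of 19239 to 27321 CPM (counts scaled to the UMI total of the class). Monocyte markers summed to 2356 to 5457 CPM in them, macrophage markers to 731 to 1752 and T cell markers to 38.8 to 275. The monocyte sum was highest in CTX and Combined, the libraries with the fewest neutrophil-like cells, as was the median share of mitochondrial counts (1.00% and 0.920%, against 0.330%, 0.394% and 0.271% in MRX, ctxd18t and combod18t), and the part of either in the values of this class was not tested. Monocyte-like cells joined a cluster led by Vcan and F13a1, one led by Ly6i and Cxcl9 and one led by interferon-induced genes. Neither of the last pair had a listed monocyte marker among its 10 leading genes. CTX and combod18t had 34 barcodes in common, of 9064 and 4085, and Combined and ctxd18t 21, of 4580 and 4127, and the other pairs had 0.

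Cxcl2 was found across all myeloid classes and was highest in neutrophil-like cells. In neutrophil-like cells its level was 22461, 16590, 11565, 13397 and 11936 CPM, highest in MRX. Monocyte-like cells held 3750, 1426, 1322, 1351 and 1139 CPM, and macrophage-like cells, led by the complement C1q genes, held 1206, 693, 488, 656 and 540. Neutrophil-like cells thus stood above monocyte-like and monocyte-like above macrophage-like cells within each of the 5 libraries, although the MRX macrophage-like level exceeded the combod18t monocyte-like level. Dendritic-like cells ranged from 165 to 654 CPM and reached nearly the macrophage-like level in CTX (654 against 693). Fibroblast-like cells, 22 to 62 per library, spread from 99.6 to 1682 CPM. Epithelial-like cells lay at 15.3 to 170 CPM and T-like, NK-like, B-like and plasmacytoid dendritic-like cells at 0 to 15.8 CPM.

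Cxcl3 was also highest in neutrophil-like cells as counted. Its level in neutrophil-like cells was 984, 397, 133, 517 and 388 CPM, again highest in MRX. Monocyte-like cells held 253, 59.0, 77.8, 146 and 39.3 CPM, below neutrophil-like cells within each library as counted. Macrophage-like cells held 12.6 to 25.9 CPM and dendritic-like cells 0.603 to 21.5 CPM. In CTX the dendritic-like level was the higher of the pair (21.5 against 14.9 CPM), and in the other 4 libraries the macrophage-like level was. The Combined neutrophil-like value rested on 36 counts, of which 58.3% came from 1 cell, and without that cell and its counterpart in CTX the levels were 56.0 and 283 CPM. In Combined that is below the 70.5 CPM of monocyte-like cells without their own top cell, so the order of these classes there rested on 1 cell.

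Cxcl1 had another distribution. It was highest in the few fibroblast-like cells that came through the sort, at 770, 2970, 2029, 2695 and 1719 CPM. These values came from 1 to 7 cells with a Cxcl1 UMI per library, and from a single cell in MRX and in combod18t. Epithelial-like cells held 227, 653, 168, 245 and 127 CPM, the Combined value from 1 of 3 cells. Neutrophil-like cells held 73.9, 175, 509, 65.9 and 129 CPM. In Combined, 97.8% of the 138 counts came from 1 cell, and without it the level was 11.2 CPM. Monocyte-like cells ranged from 13.6 to 63.7 CPM and macrophage-like cells from 9.84 to 135 CPM, so that the macrophage-like range overlapped both others. Within each library monocyte-like cells were below neutrophil-like cells as counted. Without the cell with the most counts in each class that order turned in MRX (48.5 CPM in neutrophil-like against 55.3 in monocyte-like cells) and in Combined (11.2 against 12.2).

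Of the receptors, Cxcr2 had few counts outside neutrophil-like cells. Neutrophil-like cells held 597, 355, 671, 488 and 568 CPM, lowest in CTX. Monocyte-like cells held 0.729 to 12.9 CPM and macrophage-like cells 0 to 5.61 CPM, the latter on at most 17 counts. B-like cells, taken as the free RNA level, held 0 to 0.601 CPM. The 0 counts of Combined macrophage-like cells allow up to 1.55 CPM (3 counts).

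Csf3r was highest in neutrophil-like cells too, at 1079, 755, 1021, 977 and 959 CPM, with CTX lowest. Unlike Cxcr2 it was carried by the monocyte lineage. Monocyte-like cells held 75.7, 73.3, 77.2, 93.1 and 98.3 CPM and macrophage-like cells 54.3, 57.4, 46.6, 63.8 and 77.1 CPM, the monocyte-like value being the higher in every library. Dendritic-like cells followed at 10.0 to 17.7 CPM, and T-like, NK-like, B-like and plasmacytoid dendritic-like cells were at 2.73 CPM or less.

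Both calprotectin genes were far higher in neutrophil-like cells than in any other class. In them S100a8 was at 15925, 12619, 7296, 16008 and 18472 CPM and S100a9 at 38098, 30997, 20914.5, 31908 and 32636 CPM. Combined was the lowest library for both genes. In monocyte-like cells S100a8 was at 178, 75.0, 39.0, 441 and 334 CPM and S100a9 at 128, 41.8, 13.03, 344 and 148 CPM. The d18 libraries were above CTX and Combined, the latter again lowest. B-like cells held 0.780 to 2.81 CPM of S100a8 in MRX, CTX and Combined and 10.7 and 8.36 CPM in ctxd18t and combod18t.

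**Figure D1:**
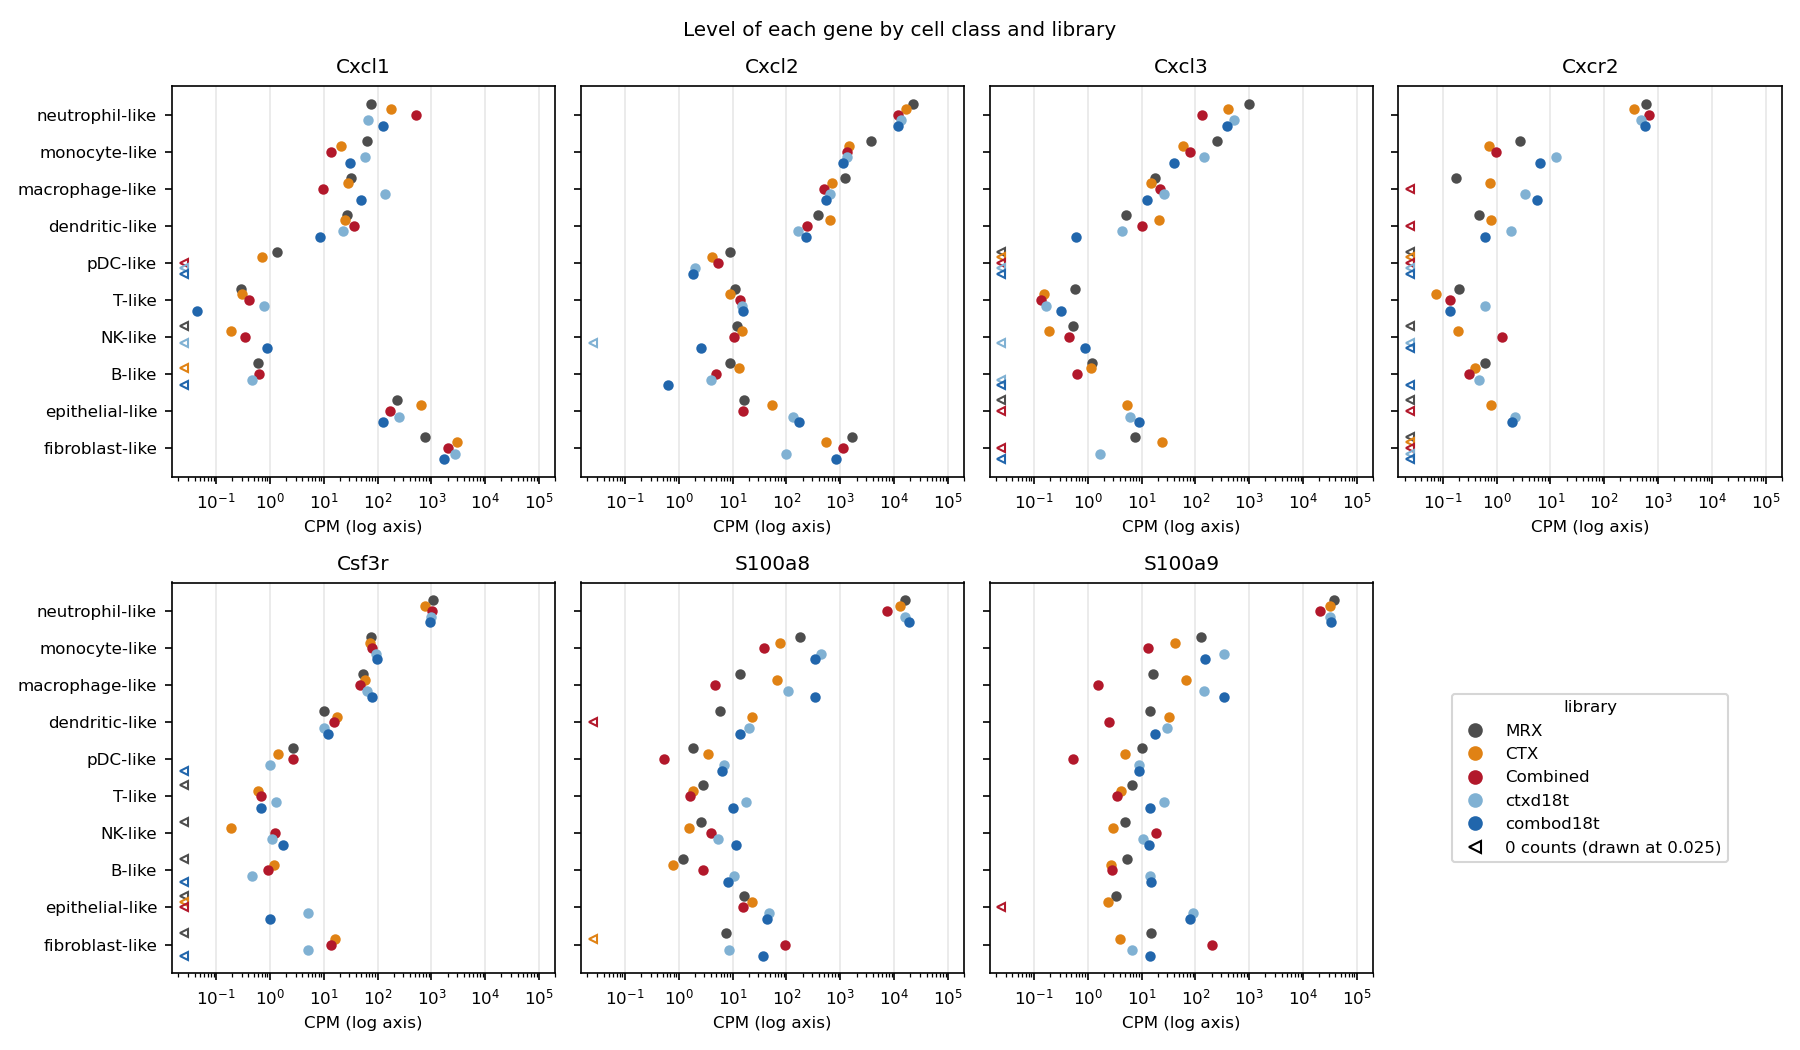
Level of each gene (CPM, log axis) in 10 cell classes, 1 point per library, with open triangles for 0 counts. Cxcr2 and the calprotectin genes drop steeply outside neutrophil-like cells, Cxcl2, Cxcl3 and Csf3r step down through monocyte-like and macrophage-like cells, and Cxcl1 is highest in fibroblast-like cells.

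Neutrophil-like cells held 95.6%, 71.5%, 79.1%, 84.5% and 96.4% of the Cxcr2 counts. For S100a9 these shares were 97.1%, 79.4%, 88.2%, 91.8% and 95.8%, and for S100a8 94.1%, 53.4%, 71.3%, 85.7% and 91.9%. In CTX, where neutrophil-like cells were 1.03% of cells, 31.4% of the S100a8 counts lay in monocyte-like cells and 11.3% in macrophage-like cells, where 1 cell held 83.3% of them.

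Neutrophil-like cells held 48.5% of the Cxcl2 counts in MRX, 59.5% in ctxd18t and 76.8% in combod18t, but 7.56% in CTX and 13.6% in Combined, where monocyte-like cells held 64.4% and 69.4%. For Cxcl3 monocyte-like cells held 51.1%, 75.0%, 84.2%, 43.7% and 8.01% and neutrophil-like cells 44.3%, 5.09%, 3.21%, 42.1% and 82.4%, so that combod18t was the only library in which the neutrophil-like share was the larger. Csf3r counts lay mainly in monocyte-like cells in CTX (60.2%) and Combined (57.7%) and mainly in neutrophil-like cells in MRX (63.5%), ctxd18t (56.9%) and combod18t (76.5%). For Cxcl1 monocyte-like cells held 43.1%, 24.7%, 28.7%, 10.2% and 6.13%, epithelial-like cells 7.60%, 27.0%, 1.91%, 15.9% and 16.5% and fibroblast-like cells 11.3%, 23.8%, 26.1%, 44.7% and 30.1%. Neutrophil-like cells held 11.1%, 2.04%, 24.0%, 3.19% and 27.1% and macrophage-like cells 19.7%, 13.1%, 3.30%, 19.1% and 9.07%. Monocyte-like cells led in MRX and Combined, epithelial-like cells in CTX and fibroblast-like cells in ctxd18t and combod18t. In combod18t that lead was 236 counts in 1 cell, beside 212 counts in neutrophil-like cells, and in Combined the neutrophil-like share came nearly whole from 1 cell.

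**Figure D2:**
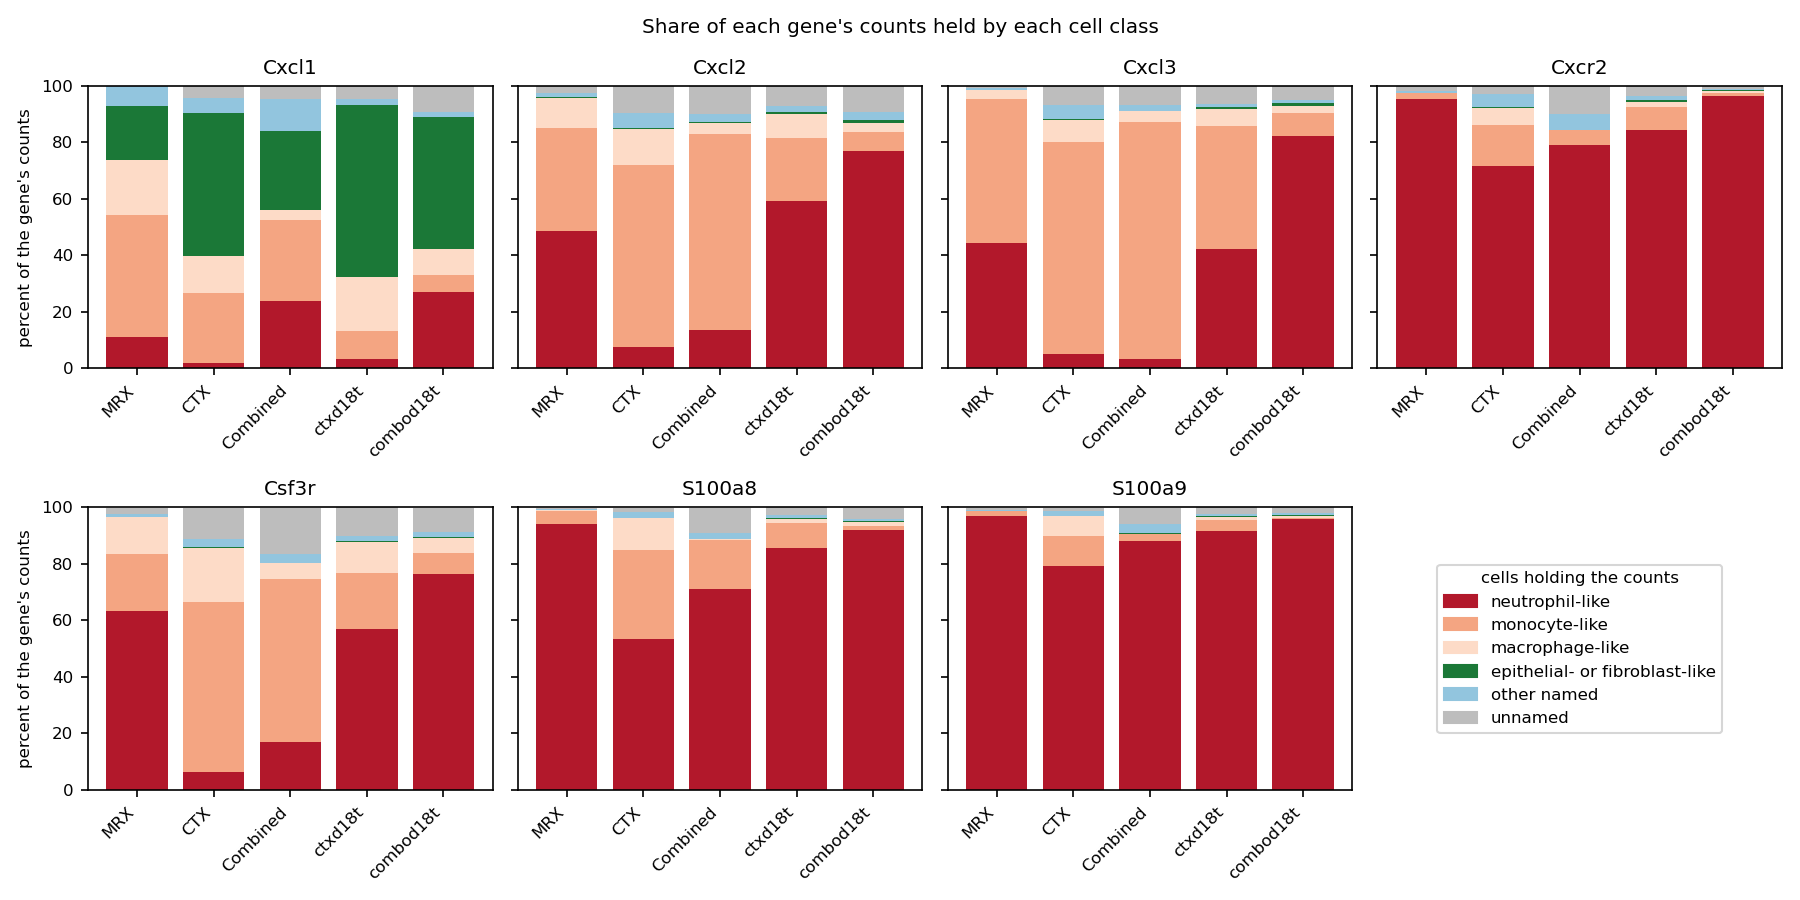
Share of each gene's counts (percent, y axis) held by each class in each library, as stacked bars over the kept cells. Neutrophil-like cells hold 71.5% to 96.4% of Cxcr2 counts, and Cxcl2, Cxcl3 and Csf3r shift between neutrophil-like and monocyte-like cells with the library.

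Detection was compared after thinning every cell to 500 UMIs. Cxcl2 was found in 87.3% of neutrophil-like cells of MRX (interval 83.9% to 90.2%) and in 80.7%, 82.7%, 83.1% and 83.6% of those of the other libraries, with overlapping intervals. B-like cells, with medians of 3978 to 7404.5 UMIs before thinning, showed it in 0% to 1.01%. Monocyte-like cells showed it in 56.4%, 35.1%, 33.9%, 31.7% and 26.5% and macrophage-like cells in 27.7%, 19.9%, 17.1%, 15.2% and 19.5%. MRX had the highest share in all 3 classes, and in monocyte-like cells its interval (52.7% to 60.1%) did not reach those of the other libraries.

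S100a9 was found in 95.8%, 94.3%, 92%, 92.9% and 88.7% of thinned neutrophil-like cells and S100a8 in 85.7%, 85.2%, 84%, 79.3% and 73.7%. For both genes the intervals of MRX, CTX and Combined overlapped, while the combod18t shares were the lowest. For S100a8 that place did not hold in cells thinned to 1000 UMIs, where ctxd18t was lowest (85.4%) and combod18t next (87.4%). Csf3r was found in 36.7% to 41.3% of thinned neutrophil-like cells and Cxcr2 in 19.2% to 32.0%, with overlapping intervals between MRX, CTX and Combined for both. Cxcl3 was found in 17.1% of them in MRX (13.8% to 20.9%), the highest share, against 5.68% (1.87% to 12.8%) in CTX, 4% (0.833% to 11.2%) in Combined and 8.58% and 10.9% in the d18 libraries. B-like cells showed Cxcl3, Cxcr2 or Csf3r in 0.186% or less and S100a8 or S100a9 in 1.05% or less.

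Within neutrophil-like cells Cxcl3 was found more often in cells with a Cxcl2 UMI than in those without, in every library but CTX. In MRX, 76 of 398 thinned cells with a Cxcl2 UMI also had Cxcl3 (19.1%), against 2 of 58 without (3.45%). In ctxd18t the counts were 28 of 281 and 1 of 57, and in combod18t 32 of 245 and 0 of 48. Combined had 3 of 62 and 0 of 13. CTX did not show it (4 of 71 and 1 of 17), at 5 cells with Cxcl3. The intervals of the shares with and without Cxcl2 were apart in MRX and combod18t and overlapped in CTX, Combined and ctxd18t. S100a8 and the receptors were found about as often with as without Cxcl2 in MRX: S100a8 in 86.2% and 82.8%, Csf3r in 38.9% and 37.9% and Cxcr2 in 24.4% and 24.1%. Cxcr2 was found less often in the Cxcl2 cells of CTX (17 of 71, 23.9%, against 8 of 17, 47.1%) and of Combined (17 of 62, 27.4%, against 7 of 13, 53.8%), with overlapping intervals, and in 19.6% and 17.5% in ctxd18t and 25.3% and 22.9% in combod18t. These are counts of cells within a library and carry no test.

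**Figure D3:**
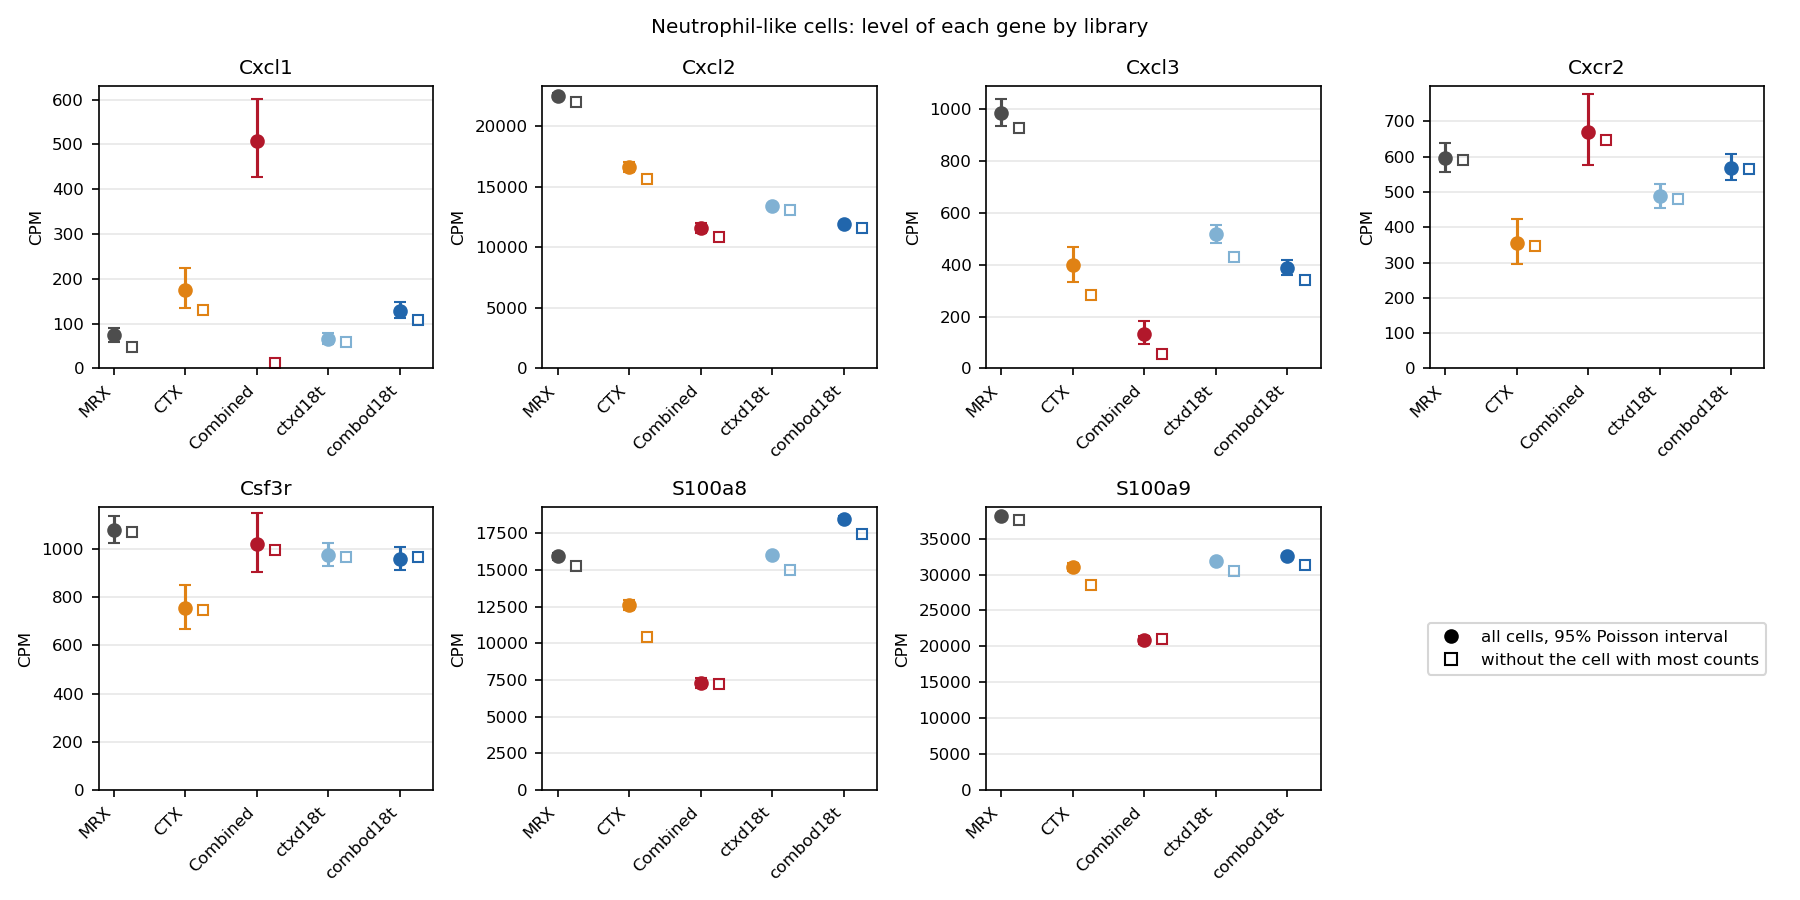
Level of each gene in neutrophil-like cells (CPM, linear axes from 0), 1 filled point per library with its 95% Poisson interval and an open square without the cell holding the most counts. Cxcl1 in Combined drops from 509 to 11.2 CPM without 1 cell, while Cxcl2, Cxcr2, Csf3r and S100a9 move little.

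Neutrophil-like cells of the d18 libraries held a second population. At a finer clustering resolution 21 ctxd18t and 24 combod18t cells, or 6.21% and 8.19% of the neutrophil-like cells, formed a cluster led by Ngp, Camp and Ltf, which encode proteins of the specific granules made in the marrow. CTX had 1 such cell, and MRX and Combined had 0 of 456 and 0 of 75 cells, which allow up to 0.658% and 4%. The 7 genes and the granule genes themselves had been kept out of the clustering. Among the neutrophil-like clusters, this one was picked for its highest summed share of Camp, Ltf and Ngp counts.

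These granule-rich cells had higher calprotectin and lower chemokine and Csf3r levels than the other neutrophils. Their S100a8 level was 55157 CPM in ctxd18t and 56747 in combod18t, against 8382 and 8644 in the other neutrophils of the same libraries. S100a9 was at 74233 and 74633 CPM against 23663 and 21851. Cxcl2 went the other way, at 1254 and 2895 CPM against 15763 and 14258. No Cxcl1 UMI was found in them, and Cxcl3 had 0 counts in ctxd18t and 2 in combod18t against 618 and 485 CPM in the others. Csf3r was at 397 and 452 CPM against 1091 and 1089, whereas Cxcr2 was at 546 and 577 against 477 and 566. These cells held 56.2% and 62.8% of the neutrophil-like S100a8 counts in ctxd18t and combod18t. The other neutrophils of these libraries lay below the 15925 CPM of MRX, and the 1 CTX cell of this kind held 19.4% of the CTX neutrophil-like S100a8 counts.

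**Figure D4:**
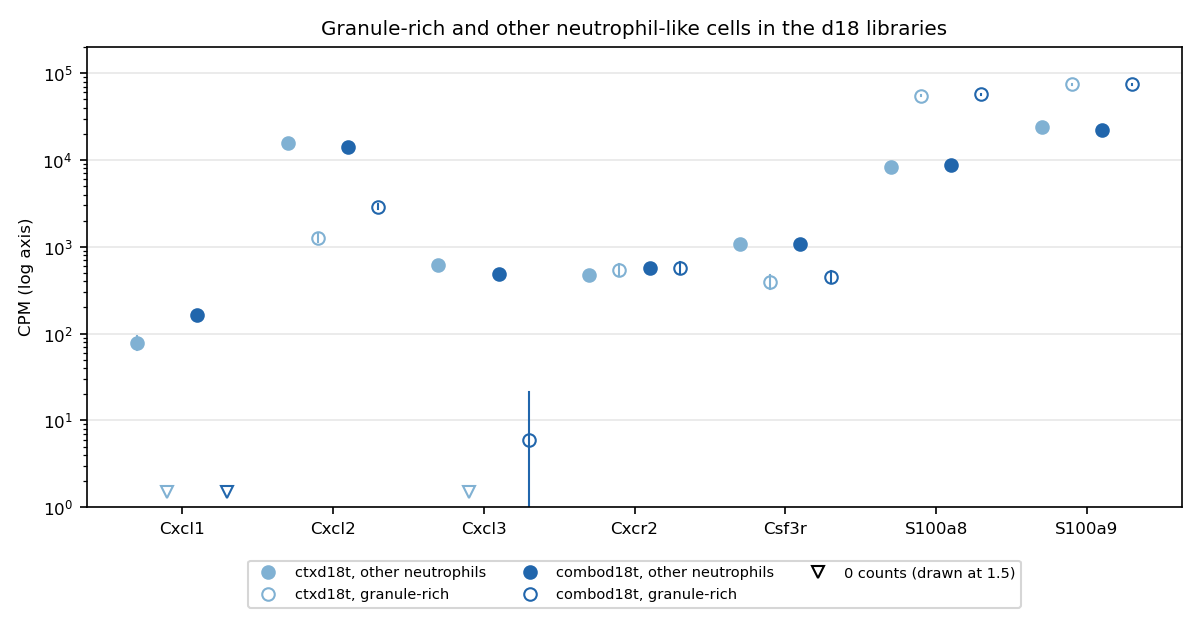
Level of each gene (CPM, log axis) in granule-rich (open) and other (filled) neutrophil-like cells of ctxd18t and combod18t, with 95% Poisson intervals as lines and open triangles for 0 counts, drawn at 1.5. Calprotectin genes are higher and Cxcl1, Cxcl2, Cxcl3 and Csf3r lower in the granule-rich cells, and Cxcr2 is similar.

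The balance of the calprotectin transcripts also differed between cells. S100a8 made up 29.5%, 28.9%, 25.9%, 33.4% and 36.1% of S100a8 plus S100a9 counts in neutrophil-like cells. In the granule-rich cells the share was 42.6% and 43.2%, and in the other neutrophils of the same libraries 26.2% and 28.3%, within the range of the other 3 libraries. Monocyte-like cells had a higher S100a8 share, of 58.2%, 64.2%, 74.96%, 56.2% and 69.3%. Both genes are counted at their 3′ ends, so the share compares captured molecules and not protein.

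In every library but Combined, most monocyte-like S100a8 counts lay in the minority of cells that also held neutrophil-defining transcripts. Of the monocyte-like cells, 22.6%, 10.1%, 14.4%, 39.2% and 44.2% had a UMI of Retnlg, Ly6g, Mmp8, Stfa2l1, Asprv1, Cd177, Camp, Ltf or Ngp, whose summed level was 16.3 to 110 CPM against 2731 CPM in MRX neutrophil-like cells. The cells were not thinned for this split, at median depths of 8354.5, 9676.5, 11055.5, 13310.5 and 12998 UMIs, and the part of depth in these shares was not tested. The cells with such a UMI held 77.1%, 56.4%, 29.6%, 93.6% and 93.2% of the monocyte-like S100a8 counts. In the remaining monocyte-like cells S100a8 was at 54.7, 37.5, 32.9, 49.95 and 46.4 CPM and S100a9 at 30.7, 13.8, 5.13, 29.0 and 12.9 CPM. The part of free RNA, of doublets and of cells between these types in the result was not tested. Cxcl2 depended less on such cells: without them it was at 3282, 1353, 1229, 1239 and 1011 CPM in monocyte-like cells.

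In macrophage-like cells 1 cell held most calprotectin counts in CTX and in combod18t. S100a8 was at 13.9, 65.8, 4.66, 107 and 336 CPM, and 1 cell held 83.3% of the CTX counts and 69.1% of the combod18t counts. For S100a9, at 16.0, 65.8, 1.55, 145 and 346 CPM, 1 cell held 77.8% in CTX and 87.0% in combod18t. Without the cell with the most counts, S100a8 was at 11.8, 11.05, 3.64, 79.8 and 105 CPM. The Combined values rested on 9 and 3 counts.

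For Combined against CTX, which the protocol puts in 1 run, neutrophil-like Cxcl2, Cxcl3 and both calprotectin genes were lower in Combined and the receptors higher. Of 1078 expressed genes in these cells, 8.63% were 2-fold or more apart in either direction, and of the 7 genes 2 were. With no filter on low counts that share was 44.4% of 11611 genes. Cxcl3 was lower, with a log2 ratio of -1.57 (interval -2.15 to -1.05), 133 against 397 CPM. Cxcl1 had a log2 ratio of 1.53, and -3.44 without the cell with the most counts in each library, so its direction rested on 1 cell. Cxcl2 had a log2 ratio of -0.52, S100a8 -0.79 and S100a9 -0.57, beside a median of 0.07 over all expressed genes. Csf3r had 0.43 (0.19 to 0.68) and Cxcr2 0.91 (0.58 to 1.25), and with every cell thinned to 500 UMIs Cxcr2 was at -0.09. Macrophage markers, 11 of 12 with counts in each library, summed to 1752 CPM in CTX and 992 in Combined in these cells, and T cell markers (11 and 5 of 12 with counts) to 175 and 62.7. Their part in these values was not tested.

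In monocyte-like cells the same comparison showed lower S100a9 in Combined. Of 3520 expressed genes 0.284% were 2-fold or more apart, and of the 7 genes only S100a9, at 13.03 against 41.8 CPM (log2 ratio -1.61, interval -1.93 to -1.44). Of the 158 Combined counts of S100a9 1 cell held 48.1%, and the ratio was -2.29 without the top cells and -0.14 with clusters of mixed markers kept, so the call was lost there. S100a8 followed with -0.93 (-1.09 to -0.80). Cxcl2 differed by -0.11, Csf3r by 0.07 and Cxcl3 by 0.39 (0.29 to 0.51). In macrophage-like cells 0.647% of 3557 expressed genes passed 2-fold. Of the 6 genes with enough counts, Cxcl1 (-1.40), S100a8 (-3.56) and S100a9 (-4.71) passed, all lower in Combined, and without the top cells S100a8 was at -1.38 and S100a9 at -2.94. S100a8 was at -0.31 without cells holding a neutrophil gene, and Cxcl1 at -0.92 with a pseudocount of 10 CPM.

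For combod18t against ctxd18t, the corresponding labels with d18, 0 of the 7 genes passed 2-fold in neutrophil-like cells, where 1.83% of 3006 expressed genes did. Cxcl2 differed by -0.17 (-0.19 to -0.14), Cxcl3 by -0.42 (-0.56 to -0.27), Cxcr2 by 0.22 (0.08 to 0.36), Csf3r by -0.03 (-0.13 to 0.07), S100a8 by 0.21 and S100a9 by 0.03. Cxcl1 came nearest, with 0.96 (0.63 to 1.31) on 212 and 114 counts. It was at 1.03 without the granule-rich cells and at -0.06 with every cell thinned to 500 UMIs. Without the granule-rich cells S100a9 was lower in combod18t (21851 against 23663 CPM) and S100a8 was at 8644 against 8382 CPM. In monocyte-like cells 2.63% of 3961 expressed genes passed, and of the 7 genes Cxcl3 (-1.87, 39.3 against 146 CPM) and S100a9 (-1.21), both lower in combod18t. S100a9 was within 2-fold with clusters of mixed markers kept (-0.39), on thinned cells (-0.60) and with the mean of each cell's CPM (-0.83). The combod18t class held 113 cells, and 1 of them held 71.0% of its 62 Cxcl3 counts. Without the top cells of both libraries the difference was larger, at -3.39 (11.6 against 131 CPM). All 12 macrophage markers had counts in this class in both libraries, with sums of 4390 CPM in ctxd18t and 2331 in combod18t, and their part in these values was not tested. In macrophage-like cells 1.54% of 3957 expressed genes passed, and Cxcl1 (-1.42), S100a8 (1.65) and S100a9 (1.25) did. Without the top cells S100a8 was at 0.40 and S100a9 at -1.35. Both turned to the other side of 0 at the finer resolution (-3.00 and -2.59) and without cells holding a neutrophil gene (-0.94 and -1.14). Cxcl1 was within 2-fold at 500 genes per cell (-0.92), with no doublets removed (-0.92) and at the finer resolution (-0.84).

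CTX and Combined were each also set beside MRX, and these comparisons share libraries with each other and with the one above, so their values are given side by side only. Both libraries had fewer neutrophil-like cells than MRX, and their expressed genes in these cells were shifted by medians of -0.24 and -0.11, with 19.5% of 2641 and 13.5% of 2550 genes past 2-fold. Cxcl3 was lower, with log2 ratios of -1.31 in CTX and -2.88 in Combined, and Cxcl2 had -0.44 and -0.96. S100a8 differed by -0.34 and -1.13 and S100a9 by -0.30 and -0.87. Csf3r differed by -0.51 and -0.08 and Cxcr2 by -0.75 and 0.17. Cxcl1 was higher by 1.23 and 2.77, the second value -2.02 without the top cells. In all, 2 of 7 genes passed 2-fold in CTX and 3 of 7 in Combined, of which S100a8 did not on thinned cells (-0.74) or with the mean of each cell's CPM (-0.85). In the larger neutrophil cluster at the finer resolution that mean was not lower in CTX than in MRX for S100a9 (39615 against 36679) or S100a8 (14852 against 14661). It was lower for Cxcl2 (21664 against 22361), Csf3r (956 against 1056) and Cxcr2 (505 against 598). Thinned cells showed Cxcr2 in 25 of 88 in CTX and 111 of 456 in MRX.

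In monocyte-like cells the 3 chemokines were lower in both libraries than in MRX. Cxcl2 had log2 ratios of -1.39 (-1.42 to -1.37) in CTX and -1.50 (-1.53 to -1.47) in Combined, Cxcl3 -2.08 and -1.69, and Cxcl1 -1.53 and -2.15. S100a8 differed by -1.24 and -2.16 and S100a9 by -1.59 and -3.20, while Csf3r differed by -0.05 (-0.19 to 0.10) and 0.03 (-0.13 to 0.19). In all, 6 genes passed 2-fold in CTX and 5 in Combined, beside 4.04% of 3563 and 5.63% of 3640 expressed genes. With no doublets removed the CTX number was 2, Cxcl2 (-1.25) and Cxcl3 (-1.40), while S100a9 was higher in CTX (0.95) and S100a8 was at -0.39, and Cxcl3 in Combined was at -0.95. Without cells holding a neutrophil gene S100a8 was at -0.53 in CTX and -0.72 in Combined. Among the 6 genes in CTX was Cxcr2, at 26 and 17 counts. Macrophage markers, 12 of 12 with counts in each library, moved with these values in monocyte-like cells, with sums of 5303 CPM in MRX, 3059 in CTX and 2192 in Combined, and their part was not tested.

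Different clusters held most monocyte-like cells: the Vcan and F13a1 cluster held 510 of 716 cells in MRX, and the Ly6i and Cxcl9 cluster 2236 of 3068 in CTX and 729 of 984 in Combined. Within the Vcan and F13a1 cluster Cxcl2 was at 4151 CPM in MRX, 2392 in CTX and 2024 in Combined, and Cxcl3 at 321, 164 and 185. Within the Ly6i and Cxcl9 cluster Cxcl2 was at 2974, 1267 and 1187 CPM and Cxcl3 at 64.7, 44.9 and 54.4. Cxcl2 was thus lower than in MRX within both clusters, and in the interferon-led one too (2171, 1320 and 1105.5 CPM). S100a8 was at 222, 255 and 88.6 CPM in the former cluster and 12.1, 41.3 and 29.8 in the latter, so that CTX was not below MRX in either. In the interferon-led cluster, with 63, 328 and 61 cells, it was at 177, 80.2 and 19.9 CPM. At the finer resolution the cluster led by Plcb1 and Vcan kept 259 MRX cells, and 267 MRX cells fell, with 51 of CTX and 13 of Combined, into a cluster led by F13a1 and Apoe that scored highest for macrophage markers and stayed unnamed.

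In macrophage-like cells 2.74% of 3470 and 4.02% of 3605 expressed genes passed 2-fold against MRX. Cxcl2 had log2 ratios of -0.80 in CTX and -1.30 in Combined, and Cxcl1 -0.20 and -1.60. Cxcl3 and Csf3r differed by 0.29 or less in size. S100a8 and S100a9 were higher in CTX (2.17 and 1.97) and lower in Combined (-1.40 and -2.74). Without the top cells the CTX values were -0.09 and 0.16, with no doublets removed -0.76 and -0.13, and without cells holding a neutrophil gene -1.09 and -1.13. The counts past 2-fold were thus 2 of 6 genes in CTX, both resting on 1 cell, and 4 of 6 in Combined, where Cxcl2 was at -0.97 at 500 genes per cell and S100a8, on 9 counts, at -0.70 with a pseudocount of 10 CPM and -0.90 with the mean of each cell's CPM.

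**Figure D5:**
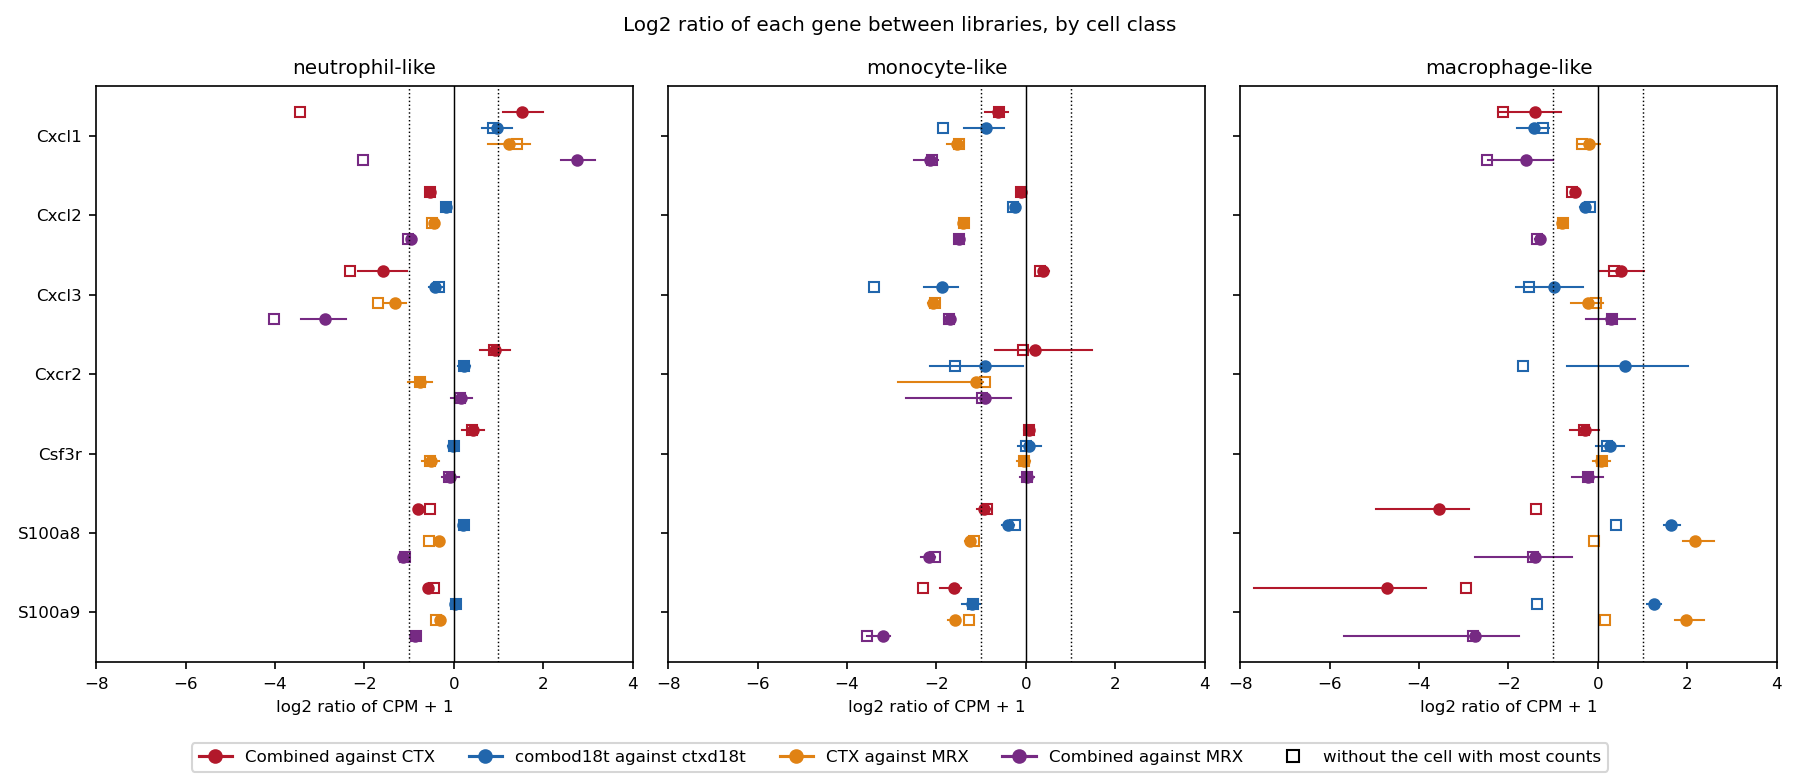
Log2 ratio of CPM + 1 (x axis) of each gene between libraries in 3 cell classes, as filled points with the 95% counting interval of the ratio as lines, and open squares without the cell with the most counts in each library; dotted lines mark 2-fold. Among the open squares that part from filled points are Cxcl1 and Cxcl3 of Combined in neutrophil-like cells, Cxcl3 of combod18t against ctxd18t in monocyte-like cells (-1.87 and -3.39) and S100a8 and S100a9 in macrophage-like cells.

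Other genes of these pathways were followed as lists that leave out the 7 genes. Among 10 NF-kB early response genes, all expressed in neutrophil-like cells, 2 were higher by 2-fold or more and none lower in Combined against CTX, and the median log2 ratio was 0.20, beside 8.63% of all expressed genes past 2-fold and a median of 0.07. They were Icam1, an adhesion molecule (1.45, 660 against 242 CPM), and Tnfaip3, a feedback inhibitor of NF-kB (1.07), the latter named after its values were seen. Against MRX 2 of the 10 were higher in CTX and none lower. Their median was 0.20 beside -0.24 over all expressed genes, of which 19.5% passed 2-fold. For Combined against MRX 2 of the 10 were higher and none lower as well. The median was 0.39 beside -0.11 over all expressed genes, of which 13.5% passed 2-fold, and Icam1 was at 1.60. Of 10 colony-stimulating factor and receptor genes 7 were expressed there, with a median of 0.39 as well, and 1 was past 2-fold, the alarm cytokine gene Il1a (2.21, 1843 against 397 CPM). The NF-kB list had no gene past 2-fold in combod18t against ctxd18t, with a median of 0.02, beside 1.83% of all expressed genes there. Of 12 further chemokine and adhesion receptors, 9 were expressed for Combined against CTX and 1, Selplg, a selectin ligand also named after its values were seen, was higher (1.07), beside the same 8.63%, with a list median of 0.21. Of 8 calprotectin relatives and receptors 5 were expressed, with 2 lower, none higher and a median of -0.80. Of 7 further chemokines 3 were expressed, none past 2-fold, with a median of -0.89. Of 14 granule genes 7 were expressed: Ngp and Camp had 630 and 332 counts in CTX, nearly all in the 1 granule-rich cell, and 0 in Combined, Ltf was lower (-4.76, with 142 of its 153 CTX counts in that cell) and Mmp9 higher (1.48).

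In monocyte-like cells 9 of the 12 further receptors were expressed against MRX. In CTX 1 was lower and none higher, with a median of -0.26, and in Combined 1 was lower and 1 higher, with a median of -0.28, beside 4.04% and 5.63% of expressed genes past 2-fold and medians of -0.03 and 0.03. C5ar1, the complement C5a receptor, was lower than in MRX, with -1.48 in CTX and -1.43 in Combined (388 CPM in MRX, 139 and 143). Fpr2, a formyl peptide receptor, was higher in Combined than in MRX by 1.12 (144 against 65.8 CPM). Of the 7 further chemokines 3 were expressed, with medians of -0.77 and -0.91, and Pf4, the platelet factor 4 gene, alone passed 2-fold, with -2.51 in CTX and -4.12 in Combined. Pf4 is also among the leading genes of 2 macrophage-like clusters at the finer resolution, and the macrophage marker sums of monocyte-like cells took the same order of libraries. At d18 the macrophage-like chemokines Ccl3 (-1.57), Ccl4 (-1.48) and Ccl6 (-1.53) were lower in combod18t than in ctxd18t, 3 of 4 expressed list members, with a list median of -1.50 beside 0.02 over all expressed genes, of which 1.54% passed 2-fold. In the list of calprotectin relatives, 7 of 8 genes were expressed there and 2, S100a4 (-1.45) and S100a6 (-1.02), were lower, with a list median of -0.89.

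The genes with patterns most like each member were found by Pearson correlation of log2(CPM + 1) over 48 class-by-library sums among 11486 genes, which share libraries and depth. The members themselves were left out of this ranking. Cxcl2 was most like Msrb1 (r = 0.96), Il1rn (0.95) and Clec4d (0.95), and Cxcl3 most like Rhov (0.95), Trem3 (0.94) and Trem1 (0.93). Cxcr2 was most like Il36g (0.97), Wfdc21 (0.97) and Gm39459 (0.96), and Csf3r most like Fpr2 (0.95), Clec4e (0.94) and Rab44 (0.94). Outside the members S100a8 and S100a9 both had Wfdc21 first (0.923 and 0.936). With each other they had r = 0.967, and Cxcr2 had 0.915 with S100a8 and 0.945 with S100a9. Cxcl1 stood apart, most like Pdpn (0.94), Cpne8 (0.91) and Fam114a1 (0.91).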

How the data were processed

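Single-cell libraries of CD45+ cells labelled as from mouse mammary tumours were analysed from the deposited matrices of raw UMI counts, made by the authors with Cell Ranger 9.0.1. GRCm39 and Seurat 5.2.0 appear in the submitters' processing notes. Cells with at least 200 genes and at most 15% mitochondrial counts were kept. The doublet caller of scanpy 1.11.5 marked under 0.5% of cells by its own threshold, so cells with a doublet score above the 95th percentile of their library were removed and ties at it kept (160 cells removed in combod18t to 392 in CTX). The libraries were clustered together without batch correction (2000 variable genes, 30 components, 15 neighbours, leidenalg 0.10.2 at resolution 1), with the 7 genes and the pathway lists kept out, and clusters were named from marker lists. Counts were summed per class and library and divided by the class total (CPM). Ratios are log2 of CPM + 1, with intervals from the exact conditional binomial, for which no pseudocount was added. Poisson and Clopper-Pearson intervals came from scipy 1.17.1. A gene was expressed with at least 100 counts over both libraries and 50 CPM in 1, and a member entered the counts of genes past 2-fold with at least 20 counts over both. Named pathway genes are at most 5 per comparison and class, the largest past 2-fold, and likeness lists the 3 highest correlations with genes outside the members. The members and lists were chosen with earlier results of these data known. On simulated counts with 200 changed genes the direction was kept in 100% for Combined against CTX in neutrophil-like cells (1078 genes), with a median error of 0.130. These counts were drawn for class totals with counting error only. They hold no spread between cells, so they say nothing of ratios that rest on 1 cell or of differences between animals. Alternatives changed the gene minimum, doublet removal, resolution, scaling, pseudocount, thinning and summing. Promoter sequences were taken from RefSeq (GRCm38.p6).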

Additional observations from a re-analysis of the deposited data

Results flagged for a closer look

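For some genes the Combined to CTX ratio and the combod18t to ctxd18t ratio lay on opposite sides of 0, with 1 library in each group. The difference between the ratios was not tested. In neutrophil-like cells the log2 ratio of S100a8 was -0.79 for Combined against CTX and 0.21 for combod18t against ctxd18t, and that of S100a9 was -0.57 and 0.033. Without the granule-rich cells S100a9 was at 21851 CPM in combod18t against 23663 in ctxd18t, so its opposite sides did not hold there. S100a8 was at 8644 against 8382 CPM without them. For Cxcl3 the values were 0.39 and -1.87 in monocyte-like cells and 0.52 and -0.98 in macrophage-like cells, where combod18t had 62 and 18 counts. In macrophage-like cells S100a8 had -3.56 and 1.65 and S100a9 had -4.71 and 1.25. Combined had 9 and 3 counts of these genes there, and 1 cell held 69.1% and 87.0% of the combod18t counts. The opposite sides did not hold at resolution 2, where the combod18t to ctxd18t values were -3.00 and -2.59, or without cells with a neutrophil gene (-0.94 and -1.14).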

How the results depend on the processing

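No paired analysis was possible because each label has 1 library, and for the same reason no replicate could be left out. Leaving out the cell with the most counts, the granule-rich cluster, or monocyte-like and macrophage-like cells with a neutrophil gene was chosen after seeing the data. Without the top cells the Cxcl1 log2 ratio in neutrophil-like cells turned to -3.44 for Combined against CTX and -2.02 for Combined against MRX. In macrophage-like cells combod18t against ctxd18t turned to -3.00 (S100a8) and -2.59 (S100a9) at resolution 2, to -0.94 and -1.14 without cells with a neutrophil gene, and S100a9 to -1.35 without the top cells. CTX against MRX in these cells turned to -0.76 and -0.13 with no doublets removed and to -1.09 and -1.13 without cells with a neutrophil gene, and S100a8 to -0.086 without the top cells. In monocyte-like cells S100a9 turned to 0.95 for CTX against MRX with no doublets removed. The number of members past 2-fold for Combined against CTX in monocyte-like cells, 1 as reported, was 2 with no doublets removed or the B-like level subtracted and 0 with clusters of mixed markers kept. For combod18t against ctxd18t it moved from 0 to 1 in neutrophil-like cells without the granule-rich cluster. In monocyte-like cells it moved from 2 to 4 at 500 genes per cell, without cells with a neutrophil gene and without the top cells, and in macrophage-like cells from 3 to 5 on thinned cells. For CTX against MRX it moved from 6 to 2 in monocyte-like cells with no doublets removed. In macrophage-like cells it moved from 2 to 4 at resolution 2 and to 0 with the mean of each cell's CPM or without the top cells. The cause of these shifts was not tested. Lower Cxcl2 in monocyte-like cells against MRX kept its direction and stayed past 2-fold in 11 of 11 alternatives for CTX (-1.51 to -1.25) and for Combined (-1.71 to -1.34), none of which compares within a cluster (against MRX, Cxcl2 was within 2-fold for CTX in the Vcan and F13a1 cluster and for both libraries in the interferon-led one, and past 2-fold for Combined in the former and for both in the Ly6i and Cxcl9 cluster). Lower Cxcl3 in neutrophil-like cells for Combined against CTX kept its direction and stayed past 2-fold too (-2.32 to -1.35). With no filter on low counts the share of genes past 2-fold over the 12 comparisons and classes ran from 0.264% to 44.4%, against 0.284% to 19.5% of expressed genes. In the neutrophil-like cells of CTX and Combined, 88 and 75 cells, Cxcl1 rested on 63 and 138 counts and Cxcl3 on 143 and 36, at median depths (2810.5 and 3186 UMIs per cell) near that of MRX (2895).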

Other observations

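The granule-rich neutrophils of the d18 libraries had high levels of specific granule genes in both. For Camp, Ltf and Ngp this follows from the choice of the cluster, which was picked by their summed share. Ngp, a granule protein gene, was at 25947 CPM in ctxd18t and 25972 in combod18t, Camp, the cathelicidin gene, at 18283 and 14367, and Ltf, the lactoferrin gene, at 8596 and 7860. Of the genes of the earlier primary granules, Mpo, myeloperoxidase, had 0 and 8 counts and Ctsg, cathepsin G, 0 and 1, with Elane, neutrophil elastase, at 3.54 and 116 CPM (1 and 39 counts) and Prtn3, proteinase 3, at 70.9 and 392. Of the cell division genes only Mki67 and Top2a were read, at 500 and 478 CPM in ctxd18t and 104 and 14.9 in combod18t (Top2a on 135 and 5 counts). These values come from 21 and 24 cells of 1 library each and were not tested.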
